A study of Mus musculus with 5 samples.

Results

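The genes described here are the mitochondrial ribosomal proteins of the mouse, taken as every gene whose symbol starts with Mrpl or Mrps followed by a number, without pseudogene symbols. They make up 78 of the 53700 genes in the deposited count table. A further 6 pseudogene rows with such symbols were left out, and no symbol had more than 1 row. By their place in the assembled ribosome, 51 of the 78 proteins belong to the large subunit and 26 to the small subunit. Mrps30 and Mrps18a are large-subunit proteins in spite of their names, and the protein of Mrps36 is now assigned to the 2-oxoglutarate dehydrogenase complex and to neither subunit.

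The cells were MutuDC, a mouse line with the features of cDC1 dendritic cells, and RNA was measured by poly-A RNA sequencing. The groups were cells exposed to Fanchinoline, spelled here as in the labels, for 2, 6, 12 or 24 h, and a vehicle control taken as 0 h, with 1 library per group. The design text of the series names triplicates and untreated controls instead, so neither pooling nor the solvent in the control is settled, and no dose of the compound was found in the labels. Without replicates, the spread between cultures could not be measured, no p-value is given for any pair of libraries, and exposure and hours in culture cannot be told apart.

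Mitochondrial ribosomes translate the few messages that mitochondrial DNA encodes, all of them for subunits of the respiratory chain and the ATP synthase. Their RNAs also come from mitochondrial DNA, whereas every protein of the particle is encoded in the nucleus, made in the cytosol and imported, so both genomes have to be expressed together for the particle to form. Many of the proteins have bacterial relatives, and the others were added in the mitochondrial lineage, many of them around the surface of the particle.

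The promoters of 4 member genes are shown because these genes mark the ends of the response: Mrps15 and Mrpl52 were among the 3 lowest genes at 24 h, Mrpl9 was the highest, and Mrps11 stands head to head with Mrpl46, which differed from it in level change. Each sequence runs from 250 bases before the transcription start to 50 bases after it, 5′ to 3′ on the strand of the gene, from RefSeq on GRCm38.p6. Capitals mark matches to the NRF1 motif (GCGC, any base, then TGCGC), the ETS motif CCGGAAG or the YY1 motif AAGATGGCG, on either strand.
Mrps15, chr4:126046678-126046977, plus strand: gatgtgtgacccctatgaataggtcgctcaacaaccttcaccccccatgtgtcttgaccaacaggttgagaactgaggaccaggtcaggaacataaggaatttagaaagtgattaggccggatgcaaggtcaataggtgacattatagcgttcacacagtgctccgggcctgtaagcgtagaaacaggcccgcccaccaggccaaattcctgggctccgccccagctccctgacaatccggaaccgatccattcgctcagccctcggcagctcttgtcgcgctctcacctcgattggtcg
Mrpl52, chr14:54426659-54426958, plus strand: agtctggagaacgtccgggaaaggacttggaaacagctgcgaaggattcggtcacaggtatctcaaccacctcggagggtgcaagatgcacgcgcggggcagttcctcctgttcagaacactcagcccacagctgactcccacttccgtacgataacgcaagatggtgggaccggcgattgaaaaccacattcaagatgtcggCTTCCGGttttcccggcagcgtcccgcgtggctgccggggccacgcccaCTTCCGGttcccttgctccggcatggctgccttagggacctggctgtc
Mrpl9, chr3:94443086-94443385, plus strand: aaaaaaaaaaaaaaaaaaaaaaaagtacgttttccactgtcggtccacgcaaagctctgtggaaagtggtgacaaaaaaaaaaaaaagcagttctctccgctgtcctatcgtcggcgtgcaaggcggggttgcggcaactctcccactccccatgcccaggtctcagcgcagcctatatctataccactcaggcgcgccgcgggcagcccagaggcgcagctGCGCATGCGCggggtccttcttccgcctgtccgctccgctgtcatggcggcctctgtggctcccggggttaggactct
Mrps11, chr7:78782881-78783180, plus strand: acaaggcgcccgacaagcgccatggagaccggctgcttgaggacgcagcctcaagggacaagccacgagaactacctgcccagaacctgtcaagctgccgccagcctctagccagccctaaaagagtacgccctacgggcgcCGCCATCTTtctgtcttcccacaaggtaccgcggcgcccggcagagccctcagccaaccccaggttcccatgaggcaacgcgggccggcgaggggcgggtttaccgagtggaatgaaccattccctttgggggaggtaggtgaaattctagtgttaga
The Mrps15 promoter had no match to these 3 motifs, the Mrpl52 promoter had 2 matches to the ETS motif, the Mrpl9 promoter had 1 palindromic match to the NRF1 motif, and the Mrps11 promoter had 1 match to the YY1 motif.

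Promoters of 69 of the 78 members were found in the RefSeq table. Members without one, among them Mrpl38, Mrps34, Mrpl15 and Mrps28, are not in the shares and medians of this paragraph. A gene was counted when any of its promoters held the motif. The ETS motif, bound by GABP among other factors, was present in 37.7% of the members, against 24.1% of the 7034 genes with a promoter that were expressed in these cells and 9.93% of all 27025 genes with a promoter. The NRF1 motif, named for a regulator of nuclear genes for mitochondrial proteins, was present in 18.8% of members, 13.7% of expressed genes and 5.19% of all. The YY1 motif was present in 11.6%, 4.51% and 1.64%. The E-box CACGTG, bound by MYC among others, was in 7.25% of members, 12.6% of expressed genes and 8.09% of all. For the other letters searched, shares were 49.3%, 72.3% and 38.2% for the GC box GGGCGG, 39.1%, 43.3% and 41.1% for CCAAT, and 7.25%, 7.79% and 15.7% for TATAAA. Motifs were searched on both strands, and overlapping matches to different motifs were kept. Ratios at 24 h hardly differed between members with and without the NRF1 or ETS motif. The median log2 ratio of 24 h over vehicle was -0.46 for the 13 members with the NRF1 motif and -0.46 for the 55 without it. It was -0.47 for the 25 members with the ETS motif and -0.45 for the 43 without it.

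Total counts per library lay between 33568526 and 42854511, so that 10 CPM (counts scaled to library size, with TMM factors) stood for 328 to 427 counts. Of the 78 members, 77 reached 10 CPM in at least 1 library and were compared, together with 8846 genes in all, and a compared member had between 423 and 4882 counts in a library. The 12 cDC1 markers had a summed level of 7986.5 CPM in the vehicle library and 9556.1, 8357.4, 7376.7 and 7051.9 CPM at 2, 6, 12 and 24 h. In the same order, 7 macrophage markers summed to 451, 410.9, 390.3, 329.6 and 356.8 CPM, with 1 of them at 0 throughout, and 4 plasmacytoid markers to 86, 83.8, 85.7, 87.3 and 93.7 CPM. Such sums hide the courses of single markers. Irf8 made up 4260 CPM of the cDC1 sum in vehicle, and Itgae stayed under 10 CPM. At 24 h over vehicle 3 of 11 compared cDC1 markers were lower and 0 higher, against 12.2% and 15.3% of all genes. Cd8a was lowest, with a log2 ratio of -1.24. Of the macrophage markers, Lyz2 (355 CPM in vehicle) was at -0.85 and Csf1r at 0.93. All 5 T cell markers were at 0 in every library, B cell and fibroblast lists summed to at most 0.5 CPM and the epithelial list to at most 10.5 CPM. The part of these shifts in the results on the ribosomal proteins was not tested.

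Compared per kilobase of transcript, the members' mean levels over the 5 libraries differed 62.5-fold. The highest were Mrps21, a small-subunit protein with a bacterial relative, at 225 CPM per kb, then Mrpl20 at 167, Mrpl30 at 106 and Mrpl42 at 102 CPM per kb. The lowest were Mrpl1 at 3.60, Mrpl53 at 4.35, Mrpl47 at 4.51 and Mrps26 at 7.56 CPM per kb. These proteins are thought to be present at 1 copy per ribosome, apart from the stalk protein Mrpl12. Lengths are medians over annotated transcripts and may not be those of the isoforms made in these cells. The median large-subunit level was 44.2 CPM per kb in the vehicle library and 35.4, 34.2, 32.4 and 31.3 CPM per kb at 2, 6, 12 and 24 h. The median small-subunit level was 38.7 CPM per kb in the vehicle library and 32.3, 33.5, 32.3 and 30.3 CPM per kb at these times. Both medians were highest in vehicle and lowest at 24 h.

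**Figure D1:**
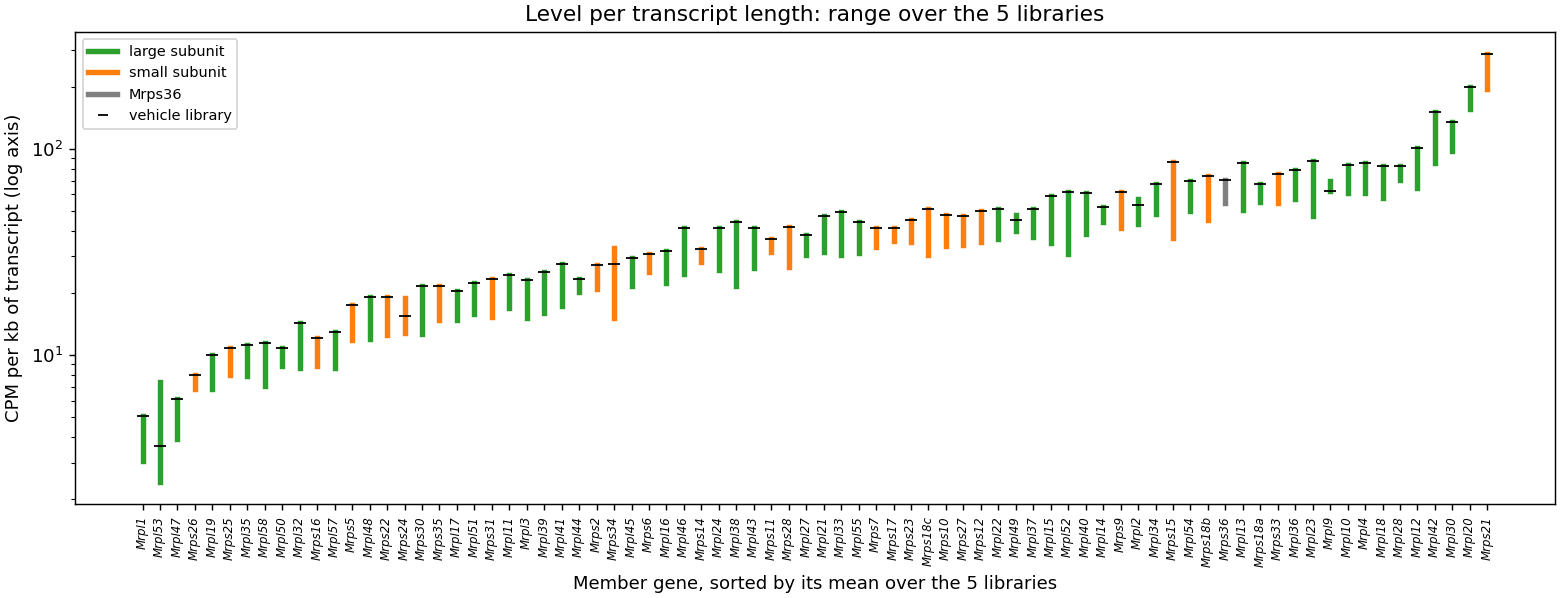
Level of each of the 78 member genes per kilobase of transcript, on a log axis, with each bar spanning the 5 libraries and the short black line marking the vehicle library. The vehicle mark sits at the top of most bars, and mean levels run from 3.60 CPM per kb for Mrpl1 to 225 CPM per kb for Mrps21.

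The group as a whole was lower in every treated library than in the vehicle library. Summed over all members, the level was 4432.2 CPM in vehicle and 3615.3, 3560, 3392 and 3218.7 CPM at 2, 6, 12 and 24 h. The log2 ratio of the sums was -0.29 (95% exact interval -0.31 to -0.28) for 2 h over vehicle and -0.46 (-0.47 to -0.45) for 24 h over vehicle. These intervals, like all others given here, cover counting error only. The sums are shares of a library, so fewer cells of a kind and less RNA per cell cannot be told apart.

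At 2 h, 14 of the 77 compared members were lower than in vehicle and 0 were higher. Calls required a log2 ratio of 0.5 or more in size and an exact interval that left out a ratio of 1. Of all compared genes, 5.97% were called lower and 10.5% higher at 2 h. The members' median log2 ratio was -0.30, against 0.03 for all compared genes, and 71 of the 77 lay below 0, against 46.9% of all genes. The lower members were Mrpl1, Mrpl13, Mrpl18, Mrpl32, Mrpl33, Mrpl39, Mrpl40, Mrpl41, Mrpl42, Mrpl46, Mrpl47, Mrps15, Mrps18c and Mrps21. No compared member reached a log2 ratio of 1 in size at this time, a size passed by 0.43% of all genes downward and 0.904% upward.

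At 6 h the picture was close to that at 2 h, with 11 members lower and 0 higher, against 6.16% and 13% of all compared genes. No member passed 1 in size, against 0.373% of all genes downward and 1.57% upward. The median was -0.32, against 0.04 for all genes. At 12 h, 24 members were lower and 0 higher, against 8.52% and 14.4% of all genes, with a median of -0.39 against 0.02. At 24 h, 33 members were lower and 0 higher, against 12.2% and 15.3% of all genes. The median at 24 h was -0.47, against 0 for all genes, and 76 of 77 members lay below 0, against 50% of all genes. Past a log2 ratio of 1 in size stood Mrps15 at 12 h, and Mrps15 and Mrpl38 at 24 h, all downward. At that size 0.746% of all genes were called lower and 2.33% higher at 12 h, and 1.23% and 2.86% at 24 h. The 4 comparisons share the vehicle library, so an error in that library would enter all of them.

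The comparison of 24 h with 2 h does not use the vehicle library. Here 8 members were lower at 24 h and 0 higher, against 6% and 6.04% of all compared genes, which is near the background for the lower calls. The members' median was -0.16, against -0.03 for all genes, and 59 of 77 lay below 0, against 53.7% of all genes. The 8 lower members were Mrpl23, Mrpl38, Mrpl52, Mrps15, Mrps18b, Mrps28, Mrps30 and Mrps34. Summed over the members, the log2 ratio of 24 h over 2 h was -0.17 (95% exact interval -0.18 to -0.16).

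**Figure D2:**
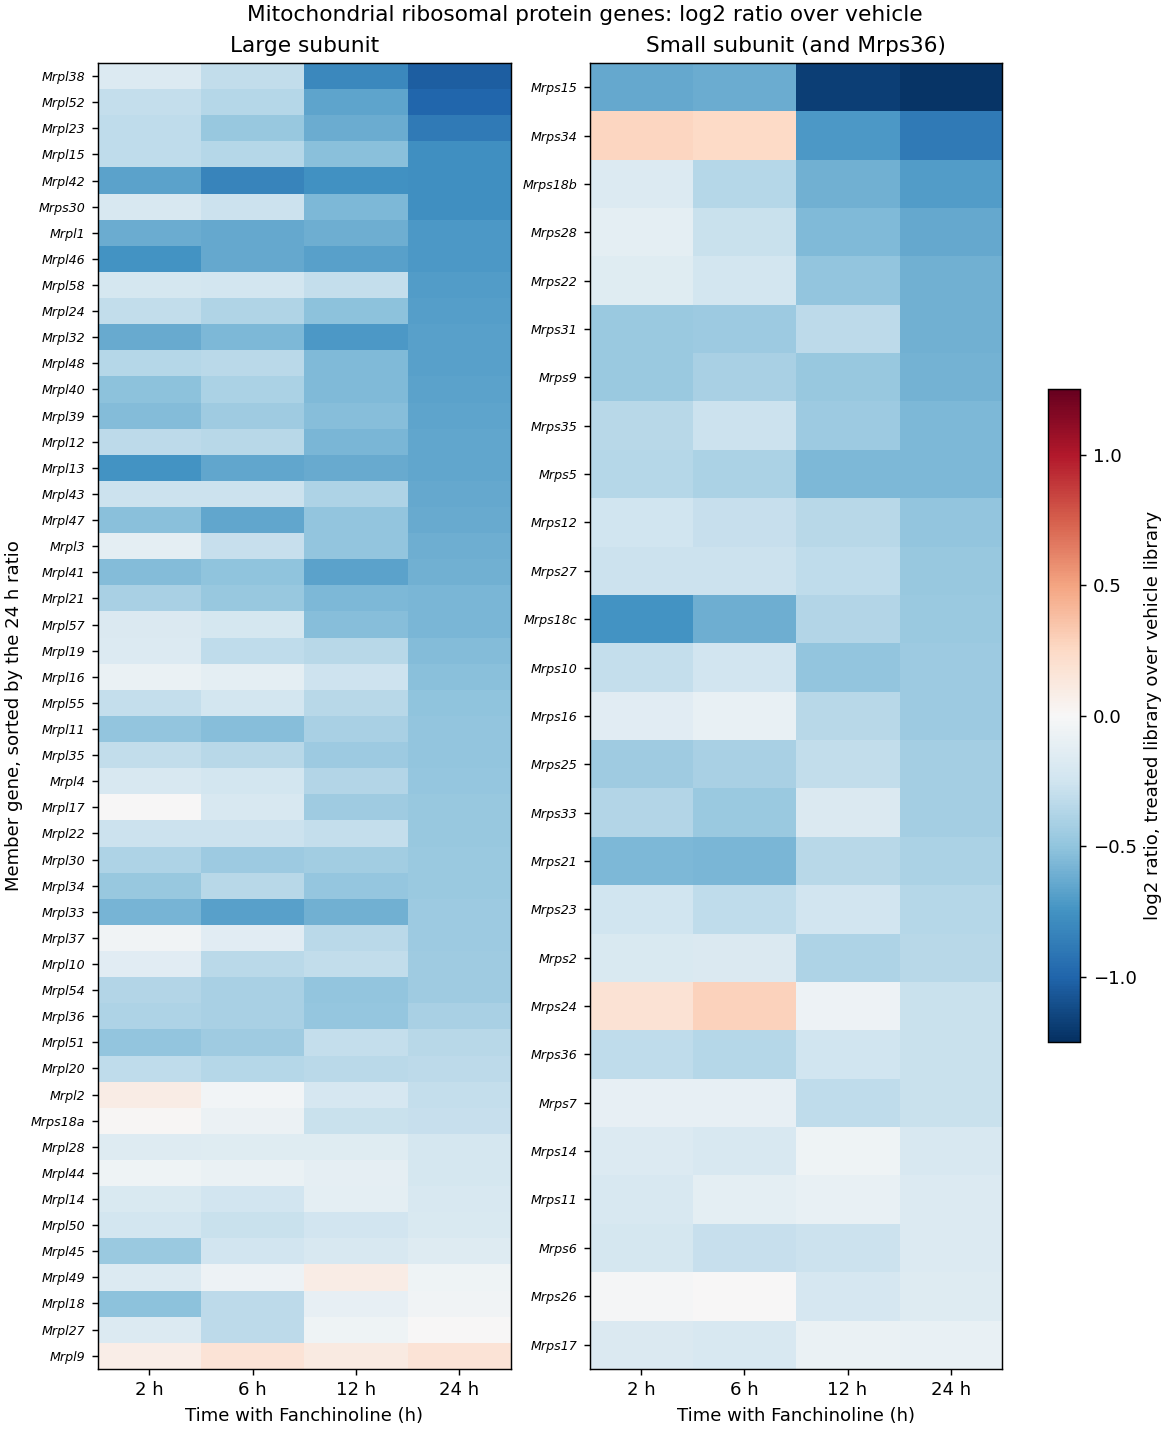
Log2 ratio of each compared member at 2, 6, 12 and 24 h over the vehicle library, for the large subunit (left) and for the small subunit with Mrps36 (right), sorted by the 24 h ratio. Blue is lower and red is higher than vehicle, and the darkest cells are Mrps15 at 12 and 24 h, at -1.18 and -1.23.

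The vehicle library held the highest level for 69 of the 77 members (89.6%, against 33.4% of all compared genes), and the 24 h library the lowest for 45 (58.4%, against 29.7%). For 24 members the level dropped at every step from vehicle to 24 h (31.2%, against 7.54%). The 8 members whose highest level was not in vehicle were Mrpl17, Mrpl2, Mrps18a and Mrps34, highest at 2 h, Mrps24 and Mrps26, highest at 6 h, Mrpl49, highest at 12 h, and Mrpl9, highest at 24 h.

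Transcripts of the ribosomal protein genes were short. The members' median length was 1226 nt, against 2705.5 nt over all compared genes, and their GC content was 50%, against 50.6%. After ratios were adjusted by a spline fit on length and GC content over all genes, the members' medians were -0.09, -0.12, -0.23 and -0.30 for 2, 6, 12 and 24 h over vehicle, and -0.16 for 24 h over 2 h. The adjusted medians of all genes were 0.02, 0.03, 0.01, -0.01 and -0.03. The adjusted counts of lower members over vehicle were 6, 6, 13 and 20 for the 2, 6, 12 and 24 h libraries, against 2.17%, 2.49%, 5.3% and 8.41% of all genes. Some of these members were not called before adjustment. At 2 h they were Mrps25, Mrps35 and Mrps5, with adjusted ratios of -0.71, -0.56 and -0.56. At 24 h they were Mrpl17, Mrpl35 and Mrps25, at -0.72, -0.65 and -0.87. For 24 h over 2 h, 10 members were lower after adjustment, against 4.89% of all genes. The adjusted counts of higher members were 0, 1, 0 and 0 over vehicle, against 3.64%, 5.12%, 6.8% and 8.64% of all genes, and 0 for 24 h over 2 h, against 4.24%. The 1 higher member was Mrps24 at 6 h, at 0.52. Among the 77 members themselves, the ratio of 24 h over vehicle showed almost no relation to log2 length (Pearson's r = -0.02 over genes of the same 2 libraries, given as a description). With log2 length, r was 0.09 for 2 h over vehicle and -0.09 for 24 h over 2 h. With GC content it was 0.31 and -0.26 for these comparisons.

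**Figure D3:**
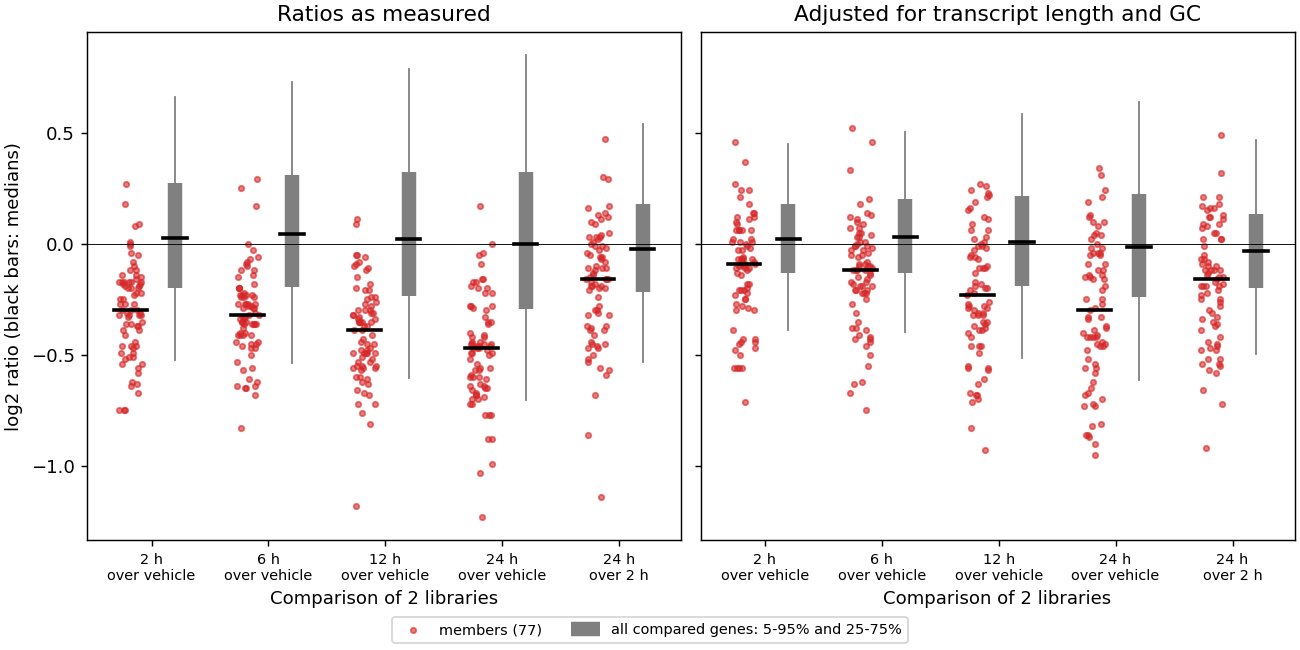
Log2 ratios of the 77 compared members (red points) beside all compared genes (grey, thick line from the 25th to the 75th percentile and thin line from the 5th to the 95th), as measured (left) and after adjustment for transcript length and GC content (right), for 5 pairs of libraries. The members' medians of -0.30 at 2 h and -0.47 at 24 h over vehicle became -0.09 and -0.30 after adjustment, and the 24 h over 2 h median stayed at -0.16.

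The large and small subunits had similar ratios. At 24 h, 24 of 50 compared large-subunit members were lower than in vehicle, with a median of -0.50, and 9 of 26 small-subunit members were lower, with a median of -0.45, against 12.2% of all genes. After adjustment for length and GC content the counts were 16 of 50 and 4 of 26, against 8.41% of all genes, with medians of -0.33 and -0.29. At 2 h the unadjusted counts were 11 of 50 and 3 of 26, against 5.97% of all genes, with medians of -0.31 and -0.24, and the adjusted counts were 3 and 3, against 2.17%. Members without a bacterial relative had a median of -0.58 at 24 h, with 17 of 30 lower, against -0.47 and 16 of 46 for those with one, and at 2 h their medians were -0.27 and -0.30. After adjustment these 24 h medians were -0.41 and -0.18, with 9 and 11 lower. The difference between these classes was not tested, since with 1 library per time there is no spread over samples to test it against.

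The central protuberance, the crest of the large subunit that contacts the head of the small subunit, held several of the lowest members. Its 7 members had a median log2 ratio of -0.68 at 24 h over vehicle, and 5 of the 7 were lower, against 12.2% of all genes. Of all 77 compared members 42.9% were lower, with a median of -0.47, and 26% after adjustment, with a median of -0.30. Whether the site differs from the other members was not tested. After adjustment for length and GC content the median was -0.48 and 3 of the 7 were lower, against 8.41% of all genes, without Mrpl46 at -0.48 and Mrpl40 at -0.41. Mrpl38, a mitochondria-specific protein of this crest (chromosome 11, 116131817 to 116138868, minus strand), had 62.3 CPM in vehicle and 55.3, 50.1, 35.6 and 30.5 CPM at 2, 6, 12 and 24 h. Its level was lower at each later time, and the step from 6 to 12 h was the widest. The log2 ratio was -1.03 (95% exact interval -1.13 to -0.93) for 24 h over vehicle and -0.86 (-0.96 to -0.76) for 24 h over 2 h, and -0.73 and -0.66 after adjustment for length and GC content.

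Mrpl52, another protein of the crest (chromosome 14, 54426909 to 54429756, plus strand), whose promoter with the ETS matches is shown above, had 27.0 CPM in vehicle and 21.9, 21.0, 17.1 and 13.6 CPM at the 4 times. It was lower at each later time, with a log2 ratio of -0.99 (-1.14 to -0.84) for 24 h over vehicle and -0.68 (-0.84 to -0.53) for 24 h over 2 h, or -0.56 and -0.55 after adjustment. Mrpl46, a mitochondria-specific protein, had 46.9 CPM in vehicle and 28.0, 30.0, 29.3 and 28.5 CPM after it, so that its whole difference was present at 2 h (-0.75, -0.86 to -0.63; -0.56 after adjustment). Mrpl40 and Mrpl48 had log2 ratios of -0.67 and -0.68 at 24 h, and Mrpl55 had -0.50, short of a call.

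Mrpl18, the last member of the crest and a relative of the bacterial protein that binds the smallest ribosomal RNA there, took the other course. Its levels were 100 CPM in vehicle and 70.4, 79.8, 93.6 and 97.5 CPM at 2, 6, 12 and 24 h. It was lower at 2 h (-0.51, -0.59 to -0.44), a call that ended after adjustment (-0.30), and near its vehicle level at 24 h (-0.04, -0.11 to 0.02). Its 24 h over 2 h ratio of 0.47 (0.40 to 0.54) was the highest of the compared members.

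Around the exit of the peptide tunnel, where new proteins leave the ribosome towards the inner membrane, 3 of 6 members were lower at 24 h. Their median was -0.55. All genes were at 12.2% lower, and the count is near the 42.9% of all 77 compared members, whose median was -0.47. After adjustment 3 of 6 were lower, against 8.41% of all genes and 26% of the compared members, with a median of -0.50. These 3 were Mrpl17 at -0.72, Mrpl23 at -0.54 and Mrpl47, without Mrpl24. Mrpl23 had 60.2 CPM in vehicle and 48.2, 43.5, 39.3 and 32.6 CPM at the 4 times, a steady decline with a 24 h over vehicle ratio of -0.88 (-0.98 to -0.78). Mrpl24 and Mrpl47 were also lower at 24 h, at -0.69 and -0.63 (-0.45 and -0.73 after adjustment), and Mrpl17 and Mrpl22 were both at -0.47. Mrpl45, which tethers the ribosome to the membrane, had 72.0 CPM in vehicle and 52.3, 60.8, 62.8 and 64.4 CPM after it. Its level at 2 h was the lowest of the 5, and its 24 h over 2 h ratio was 0.30 (0.22 to 0.38).

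The stalk recruits translation factors. Mrpl12, its repeated protein, had 133 CPM in vehicle and 106, 104, 89.3 and 84.5 CPM at 2, 6, 12 and 24 h, and was lower at 24 h (-0.65, -0.72 to -0.59; -0.42, and no longer called, after adjustment). Mrpl10 and Mrpl11, at the base of the stalk, had ratios of -0.44 and -0.49 at 24 h. Mrpl53 was the 1 member under the minimum level, with 2.50 CPM in vehicle and 5.14, 1.67, 3.50 and 2.30 CPM at the 4 times. Its log2 ratio was 1.03 (0.66 to 1.43) for 2 h over vehicle and -1.15 (-1.53 to -0.81) for 24 h over 2 h. It was left out of the calls for its low level. Gm42688, an annotated gene on the same strand that covers 88% of the exon positions of Mrpl53, had 21.7, 22.1, 22.5, 21.3 and 21.5 CPM, so the counts given to Mrpl53 are uncertain.

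Among the other large-subunit members, Mrpl13, a relative of a bacterial protein, had 104 CPM in vehicle and 61.5, 66.2, 67.1 and 66.2 CPM at 2, 6, 12 and 24 h, all 4 treated libraries lying close together (2 h over vehicle -0.75, -0.83 to -0.68; 24 h over 2 h 0.11, 0.03 to 0.19). Mrpl42 had 100 CPM in vehicle and 62.9, 56.2, 59.0 and 58.7 CPM, again with the treated libraries close together. After adjustment Mrpl13 was at -0.56 at 2 h and -0.42 at 24 h over vehicle, and Mrpl42 at -0.22 and -0.40, so that only the 2 h call of Mrpl13 was left of these 4. Mrpl15 had 112 CPM in vehicle and 89.7, 87.0, 78.1 and 65.7 CPM, declining at every step, and Mrps30, a large-subunit protein in spite of its symbol, had 71.7 CPM and then 62.5, 59.5, 48.5 and 42.0 CPM. For Mrpl15 and Mrps30 the 24 h over vehicle ratio was -0.77 each, and -0.62 and -0.86 after adjustment.

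Mrpl9, a relative of a bacterial protein at the side of the large subunit, was the only compared member above vehicle at 24 h. It had 101 CPM in vehicle and 107, 114, 109 and 114 CPM at 2, 6, 12 and 24 h, with a log2 ratio of 0.17 (0.11 to 0.24) at 24 h. Its vehicle level was the lowest of the 5, but no ratio reached 0.5. Mrpl27 and Mrpl49 had ratios of 0.00 and -0.05 at 24 h, and Mrpl27 was 0.17 for 24 h over 2 h. Mrpl51 was -0.35 at 24 h over vehicle and 0.14 for 24 h over 2 h.

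**Figure D4:**
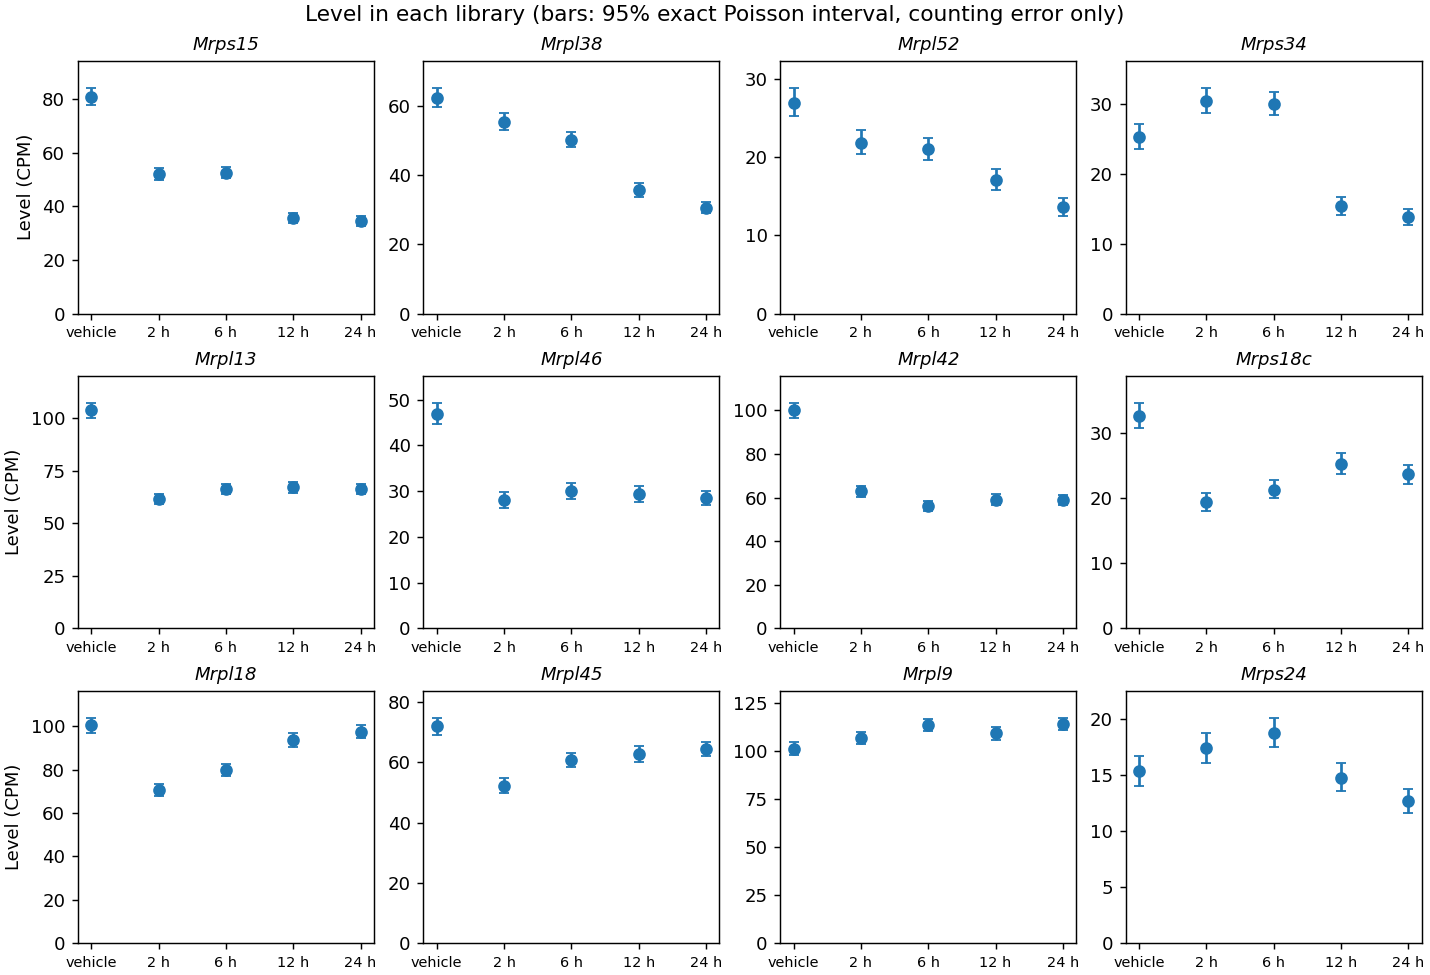
Level in CPM of 12 members in each of the 5 libraries, from vehicle to 24 h, with bars giving the 95% exact Poisson interval of the count. Mrps15, Mrpl38 and Mrpl52 decline over time, Mrpl13, Mrpl46 and Mrpl42 are low from 2 h on, Mrpl18 and Mrpl45 are lowest at 2 h, and Mrpl9 stays at or above 101 CPM.

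In the small subunit, Mrps15 had the lowest ratio of all members. It is a relative of a bacterial protein that binds the small-subunit RNA early in assembly, and lies on chromosome 4 (126046925 to 126055532, plus strand). Its levels were 80.9 CPM in vehicle and 52.0, 52.5, 35.6 and 34.5 CPM at 2, 6, 12 and 24 h. They formed 3 steps, with 2 h and 6 h alike and 12 h and 24 h alike. The log2 ratios were -0.64 (-0.72 to -0.55) for 2 h over vehicle, -1.18 (-1.28 to -1.09) for 12 h over vehicle and -1.23 (-1.32 to -1.14) for 24 h over vehicle, and -0.59 (-0.69 to -0.49) for 24 h over 2 h. After adjustment for length and GC content the ratio at 24 h was -0.95.

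Mrps34, a mitochondria-specific protein needed for a stable small subunit, had a different course. It had 25.3 CPM in vehicle and 30.4, 30.0, 15.3 and 13.8 CPM at 2, 6, 12 and 24 h. The 2 and 6 h libraries lay above vehicle (0.27, 0.14 to 0.40, at 2 h) and the 12 and 24 h libraries below it (-0.88, -1.03 to -0.72, at 24 h). The 24 h over 2 h ratio of -1.14 (-1.29 to -1) was the lowest of the compared members and past 1 in size, as were 0.69% of all genes called lower, with 0.859% called higher. After adjustment for length and GC content the ratios were -0.46 for 24 h over vehicle, short of a call, and -0.92 for 24 h over 2 h. Mapk8ip3, on the opposite strand, shares 63.4% of the exon positions of Mrps34 and had 43.2 CPM in vehicle and 52.2, 55.6, 57.9 and 55.3 CPM at the 4 times. Nme3, on the same strand, shares 37% and had at most 1.05 CPM. The kit does not mark strand, so reads in the shared stretches cannot be assigned to either gene with certainty, and their part in these values was not tested.

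The 3 proteins related to bacterial S18 occupy different sites and had different courses. Mrps18c, the one at the bacterial position, had 32.7 CPM in vehicle and 19.4, 21.4, 25.3 and 23.7 CPM at the 4 times, with its lowest level at 2 h (-0.75, -0.89 to -0.61) and a 24 h over 2 h ratio of 0.29 (0.15 to 0.43). Mrps18b had 69.2 CPM in vehicle and 61.6, 54.0, 45.7 and 42.6 CPM, with a 24 h ratio of -0.70 (-0.79 to -0.61). Mrps18a, in the large subunit, had 50.5 CPM in vehicle and 50.9, 48.0, 41.6 and 41.3 CPM. Mrps18a was not called at any time. After adjustment for length and GC content none of the 3 was called over vehicle, with Mrps18c at -0.25 at 2 h and Mrps18b at -0.42 at 24 h.

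Around the path of the messenger RNA through the small subunit, Mrps5 was lower at 24 h (-0.56), Mrps12 was at -0.49, and Mrps24 had 15.3 CPM in vehicle and 17.4, 18.7, 14.7 and 12.6 CPM at the 4 times, highest at 6 h. Urgcp, on the same strand as Mrps24, shares 15.4% of its exon positions and had 17.2 CPM in vehicle and 24.9, 25.3, 25.7 and 27.2 CPM after it. Mrps28 was lower at 24 h than in vehicle (-0.64) and than at 2 h (-0.52). Mrps21 was lower at 2 h (-0.56) and had a 24 h over 2 h ratio of 0.16. These calls of Mrps28 and Mrps21 ended after adjustment, at -0.33, -0.44 and -0.23, and Mrps5 was at -0.86 at 24 h. Mrps17, Mrps26 and Mrps11 were near vehicle at 24 h, at -0.09, -0.16 and -0.17. Mrps36, which is not part of the ribosome, had 44.7 CPM in vehicle and 35.8, 34.8, 37.5 and 36.8 CPM, with a 24 h ratio of -0.28.

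Mrps11 and Mrpl46 are transcribed away from each other from 1 shared region of chromosome 7, where the annotated genes overlap (78783119 to 78792989 on the plus strand and 78775236 to 78783531 on the minus strand). At 2 h Mrpl46 was at -0.75 over vehicle and Mrps11, with 38.4 CPM in vehicle and 33.3, 35.4, 36.1 and 34.1 CPM after it, was at -0.20 (-0.32 to -0.09). The intervals of the 2 genes did not overlap.

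Of the 78 members, 17 share at least 10% of their exon positions with another annotated gene, 5 of them on the same strand (Mrps24, Mrps6, Mrps34, Mrps18c and Mrpl53). Mrps6 shares 10.4% with Slc5a3, which had 11.4 CPM in vehicle and 16.6, 17.8, 20.9 and 21.1 CPM after it, and itself had a 24 h ratio of -0.17. Mrpl33, Mrpl51 and Mrpl3 share smaller stretches with same-strand genes, 3.6%, 2.2% and 3.7%, and their 24 h ratios were -0.45, -0.35 and -0.61. Mrps25 shares 69.8% with Nr2c2 on the other strand, and Nr2c2 had 9.15 CPM in vehicle and 32.7, 32.3, 32.5 and 32.5 CPM after it, while Mrps25 had 65.8, 48.6, 49.4, 53.0 and 49.2 CPM. What part of these values came from reads in shared stretches was not tested.

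Fitted over all 5 libraries, 19 of the 78 members fell with log2 of hours plus 1 and 0 rose at an adjusted p of at most 0.05 (edgeR's quasi-likelihood test with Benjamini-Hochberg adjustment over 13915 genes), against 4.05% of all genes falling and 5.35% rising. The spread in this test is the misfit of the libraries to a line (3 residual degrees of freedom), not a spread between replicates. The lowest adjusted p was that of Mrps15 (adjusted p = 0.0191, edgeR). Of the 19, 14 were in the large subunit, near the share of 51 among the 78 members. Before adjustment 53 members had a p under 0.05. These calls hang on single libraries, and the share of all genes called moved with them. Without the 6 h library 7 members were called falling, against 1.44% of all genes. Without the 2 h library it was 37, against 7.17%, and without vehicle 19, against 7.83%. Without the 12 h or the 24 h library it was 0, against 0% and 0.022% of all genes. In these last fits 40 and 42 members had an unadjusted p under 0.05. The share of all genes under that unadjusted p was not counted.

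The 5 mitoribosomal proteins with other symbols had the same order of ratios, with 3 of 5 lower and 0 higher at 24 h over vehicle, against 12.2% and 15.3% of all genes. Their median was -0.51. After adjustment the median was -0.24 and 1 of 5, Gadd45gip1, was lower, against 8.41% of all genes. Gadd45gip1, a large-subunit protein, had 84.0 CPM in vehicle and 82.8, 86.8, 51.6 and 46.2 CPM at 2, 6, 12 and 24 h, a level kept to 6 h and then lower (24 h over vehicle -0.86, -0.95 to -0.78). Chchd1 and Aurkaip1, both in the small subunit, were at -0.61 and -0.51, and Dap3 at -0.33.

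Among 18 compared factors of mitoribosome assembly and RNA modification, 4 were lower at 24 h and 1 higher, against 12.2% and 15.3% of all genes, with a median of -0.18. After adjustment 2 were lower and 0 higher, against 8.41% and 8.64% of all genes, with a median of -0.10. Rbfa, which helps mature the small subunit, had 68.4 CPM in vehicle and 48.9, 47.1, 37.4 and 36.2 CPM at the 4 times (24 h over vehicle -0.92, -1.01 to -0.82). Ngrn, Noa1 and Mpv17l2 were lower at -0.70, -0.66 and -0.65, and Nsun4, an RNA methyltransferase of the small subunit, was higher at 0.59. Of 13 compared genes in a list of translation factors and related proteins, 4 were lower and 0 higher, with a median of -0.38. The shares of all genes were the same 12.2% and 15.3%. After adjustment 1 of the 13 was lower, Mrrf at -0.57, against 8.41% of all genes, with a median of -0.34. The 4 lower genes were the elongation factor Tsfm at -0.70, the recycling factor Mrrf at -0.58, the RNA-binding protein Slirp at -0.53 and the formyltransferase Mtfmt at -0.51. The list of mitochondrial aminoacyl-tRNA synthetases also held the amidotransferase subunits Gatb, Gatc and Qrsl1. Of its 17 compared genes, 2 were lower and 0 higher, Lars2 at -0.75 and Rars2 at -0.56, with a median of -0.21. The count is near the 12.2% of all genes.

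In the list for mitochondrial DNA transcription and replication, 1 of 6 compared genes was lower at 24 h, a count near the 12.2% of all genes, and the median was -0.05. It was Ssbp1, the single-stranded DNA-binding protein, at -0.95. Among 7 compared regulators of mitochondrial gene expression, Myc was the 1 lower gene, a count near the 12.2% of all genes. After adjustment 3 of the 7 were lower, against 8.41% of all genes: Myc at -0.56, Yy1 at -0.56 and Pprc1 at -0.57. Myc had 264 CPM in vehicle and 238, 201, 184 and 163 CPM at 2, 6, 12 and 24 h, a decline at every step (24 h over vehicle -0.69, -0.74 to -0.65). Without adjustment Yy1 was at -0.06, Pprc1 at -0.18, Nrf1 at 0.11, and the GABP subunits Gabpa and Gabpb1 at 0.22 and -0.41. Ppargc1a and Ppargc1b had 0 counts in every library.

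The messages that these ribosomes translate were lower at 2 h, most of them only before adjustment for length and GC content. Of the 13 mitochondrially encoded messages, 12 were lower at 2 h over vehicle and 0 higher, against 5.97% and 10.5% of all genes, with a median of -0.93. At 24 h 9 were lower and 1 higher, against 12.2% and 15.3% of all genes, with a median of -0.64. For 24 h over 2 h the median was -0.16 for the ribosomal protein genes and 0.23 for the messages. Of the messages 3 were higher and 0 lower, against 6.04% and 6% of all genes. After adjustment for length and GC content 2 messages were lower and 1 higher at 2 h over vehicle, against 2.17% and 3.64% of all genes. The counts were the same at 24 h over vehicle, against 8.41% and 8.64%. The adjusted medians of the messages were -0.19 at 2 h and -0.30 at 24 h. For 24 h over 2 h the adjusted median turned to -0.17, beside -0.16 for the ribosomal protein genes. Here 0 messages were called, against 4.89% of all genes lower and 4.24% higher. The ribosomal RNA mt-Rnr1 had 309 CPM in vehicle and 182, 174, 136 and 94.8 CPM at the 4 times, and mt-Rnr2 had 144, 106, 115, 130 and 137 CPM. The libraries were made from poly-A RNA, which holds only a part of these RNAs.

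**Figure D5:**
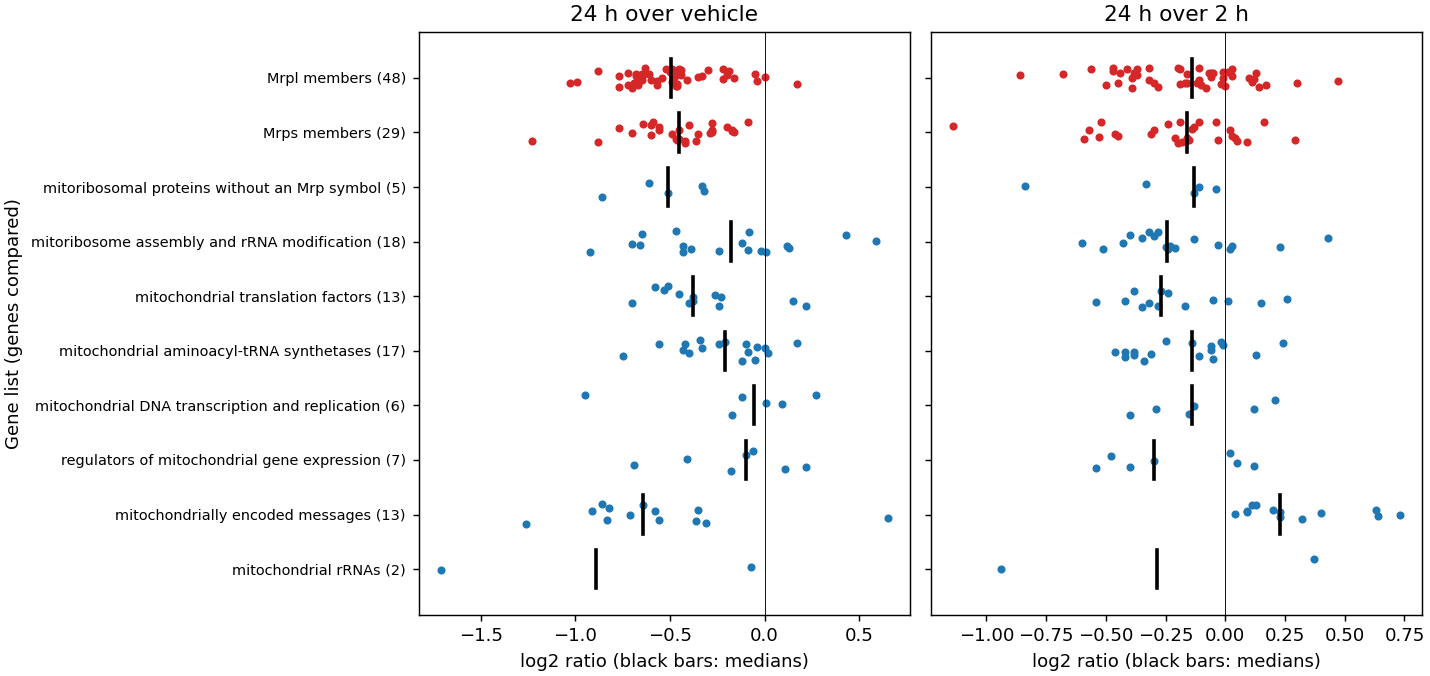
Log2 ratios of 24 h over vehicle (left) and of 24 h over 2 h (right) for the compared members (red) and for the genes of 8 related lists (blue), with the median of each list as a black bar. The ratios are not adjusted for length and GC content. The mitochondrially encoded messages have medians of -0.64 on the left and 0.23 on the right, the second of which turns to -0.17 after that adjustment.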

How the data were processed

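The authors deposited raw counts per gene, whole numbers with no normalization, 1 column for each of 5 libraries. Trim Galore, HISAT2 and the build GRCm38 are named, without versions, in the submitters' processing notes. Of the counting program, its annotation and its use of strand nothing is given in the sources used here. The kit named in the labels' protocols does not mark strand. Groups came from the labels.

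Library sizes were scaled by TMM factors (edgeR 4.0.16, R 4.3.3), and log2 ratios used a prior count of 2. Genes that reached 10 CPM in any library were compared. Intervals of ratios are 95% exact (Clopper-Pearson). A gene was called at a log2 ratio of at least 0.5 in size (1 as a second size) with an interval that excludes a ratio of 1. Slopes on log2(hours + 1) were tested with edgeR's quasi-likelihood test (glmQLFit and glmQLFTest) after filterByExpr, with DESeq2 1.42.0 as an alternative. The steps were tested on simulated counts.

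Lengths, GC content and overlaps were taken from GENCODE vM21 (GRCm38), and the adjustment used natural splines with 4 degrees of freedom on each of log2 length and GC content. Promoters were taken from RefSeq (GRCm38.p6). Other alternatives were DESeq2 size factors, total counts, other minimum levels, a prior count of 0.5, summed rows of a symbol and leaving out libraries.

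The genes named are those with the 8 highest and 8 lowest ratios for 24 h over vehicle, the 6 highest and 6 lowest for 24 h over 2 h, any past 1 in size, the 4 highest and 4 lowest levels per length, the structural sites, the member under the minimum and those with a same-strand overlap; of each other list, up to 4 with the most extreme ratio of 24 h over vehicle. Genes called at 2 h or 24 h over 2 h, before or after adjustment, were added after their values were seen. So were Mrpl13, Mrpl35, Mrps36, Mrps25, Yy1, Pprc1, Nrf1, Gabpa, Gabpb1, the neighbouring genes, the cell type markers named and the promoters shown. The members and lists were chosen with earlier results of these data known.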

Additional observations from a re-analysis of the deposited data

How the results depend on the processing

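No paired analysis was possible because each group is 1 library, so no replicate numbers are shared between cultures. Ratios rest on single libraries, and no outlier check within a group was possible. Scaling by total counts gave member medians of -0.28, -0.30, -0.36 and -0.37 at 2, 6, 12 and 24 h over vehicle. For 24 h over 2 h it gave -0.08, with 4 members lower, against 3.9% of all genes, and 1 higher. It moved the 24 h over vehicle median of all genes to 0.10. DESeq2 size factors gave -0.37 at 12 h and -0.45 at 24 h. Adjustment for transcript length and GC content gave medians of -0.09, -0.12, -0.23 and -0.30 over vehicle. The lower members were then 6, 6, 13 and 20, against 2.17%, 2.49%, 5.3% and 8.41% of all genes. With exon union lengths, an alternative chosen after seeing the data, medians were -0.14, -0.15, -0.25 and -0.35. At 2 h 7 members were then lower, against 3.58% of all genes. At 6 h each adjustment gave 1 higher member. Without members that share at least 10% of their exon positions, also chosen later, the 12 h median was -0.41. A minimum of 1 CPM, or none, gave 1 higher member at 2 h, Mrpl53.

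The trend counts were the least stable. Against 19 members falling, beside 4.05% of all genes, the DESeq2 Wald test gave 36, beside 8.08% of all genes. No filter on low counts and a slope on hours gave 0 each, as for all genes. There 51 and 28 members had an unadjusted p under 0.05 in edgeR. Leaving out 1 library gave 0 to 37 falling members, beside 0% to 7.83% of all genes, and 0 to 1 rising, the 1 without vehicle. The cause of these shifts was not tested. No member median reversed its direction. Counts could only be labelled as moved or kept, so they do not bear on direction. Of medians and counts together, 35 moved and 120 kept to the main value.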

Other observations

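Some members share a start region with a gene on the other strand. A protein-coding gene on the opposite strand has its annotated start within 1000 nt of the start of 33 of the 78 members. The share of all genes with such a partner was not counted, so the 33 cannot be read as a trait of this group. For 27 of the 33 the partner was compared. Mrps11 and Mrpl46 are each other's partners. For 24 h over vehicle the median log2 ratio was -0.47 for these 27 members and 0.04 for their partners. Of the 27 partners, 3 were at or below -0.5 and 3 at or above 0.5. These counts are near the 12.2% and 15.3% of all compared genes called lower and higher. The partners at or below -0.5 include Mrpl46, itself a member. Mrps18b and its partner Ppp1r10, a subunit of nuclear phosphatase complexes whose start lies 45 nt away, stood farthest apart of the pairs with a start within 100 nt. Ppp1r10 had 78.6 CPM in vehicle and 93.2, 104, 116 and 122 CPM at 2, 6, 12 and 24 h, higher at each later time, while Mrps18b declined at each (24 h over vehicle -0.70 for Mrps18b and 0.64 for Ppp1r10). In the pair of Mrpl36 and Ndufs6, a respiratory chain subunit, both were below vehicle, at -0.41 and -0.61. These pairs were picked after their values were seen.

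Before adjustment for length and GC content, the members lower at 2 h and those lower at 24 h than at 2 h differed in base composition. The 14 members lower at 2 h over vehicle had a median GC content of 49.2%, and the 8 lower at 24 h over 2 h had 54.8%, against 50% over the 77 compared members. After adjustment the calls for 24 h over 2 h lost Mrpl23, Mrps18b and Mrps28, at 52.5% to 55.3% GC. They gained Mrpl3, Mrpl15, Mrpl17, Mrpl57 and Mrps22, at 42.3% to 47.5%. The difference is therefore given for the calls before adjustment only. The comparisons share the 2 h library, and no test was made.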
